A study of Mus musculus with 40 samples.

Results

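The genes described here encode enzymes and helper proteins that crosslink, fold and remodel the extracellular matrix. They were chosen by name: the tissue inhibitors of metalloproteinases Timp1, Timp2 and Timp3, the matrix metalloproteinases Mmp2 and Mmp14, the lysyl oxidase family members Lox, Loxl1 and Loxl2, and the collagen chaperone Serpinh1. Of these 9 genes, 8 had a row among the 15958 genes of the expression table; Lox was not analysed here. All 8 passed the filter on low values in each of the 3 tissues, although Timp1 passed in the liver only on its mean over all liver libraries, since its mean in the sham livers lay below the minimum.

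The libraries came from wild-type male C57BL/6 mice operated on at 8 weeks of age. Small bowel resection (SBR) removed 50 to 60% of the small bowel according to the sample labels (the study's text gives a larger extent), and control mice had a sham operation. From 3 weeks after surgery the mice received daily vehicle or WUSTL0717, an orally given agonist of the liver X receptors that the study examined as putatively gut-restricted, at 30 mg/kg for 7 weeks; no sham mice received the drug. Liver was sampled from 5 sham mice given vehicle (sham), 8 SBR mice given vehicle (SBR vehicle) and 5 SBR mice given WUSTL0717 (SBR WUSTL0717), while the duodenum and the post-anastomotic ileum each had 3, 4 and 4 libraries in the same groups, for 40 libraries in all. The comparisons ask whether the resection, which leads to fibrotic liver disease in this model, changed the genes of matrix assembly and turnover, and whether the drug changed them in resected mice.

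Fibrous collagens are built in the endoplasmic reticulum with the help of chaperones, secreted, trimmed, and then joined by lysyl oxidases into crosslinked fibres that resist degradation. Matrix metalloproteinases cut collagens and other matrix proteins outside the cell, and the TIMP proteins hold these proteases in check; TIMP2 also takes part, together with the membrane-bound MMP14, in switching on MMP2. In scarring liver, stellate cells and portal fibroblasts are the cells best known for making these proteins, and TIMP1 is a long-used marker of liver fibrosis.

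Values are TPM, a read share scaled by transcript length and library total, on a log2 scale after the authors' batch correction. All liver libraries belonged to batch 2 and all gut libraries to batch 1, and the effects of batch and tissue cannot be told apart. The correction left the liver and gut means of 15855 genes (99.4%) within 1 log2 unit of each other, and even Alb, the gene of serum albumin, had a mean of 9.35 in liver and 8.27 in gut, while Sis, the intestinal sucrase-isomaltase gene, had 4.74 and 4.95. The labelled tissue could therefore not be checked against its markers, and levels are compared below only within a tissue and within a gene. The spread of a gene over liver libraries was a median of 0.355 times its spread over gut libraries. Depth is unknown, because the table holds no counts. The 7 pancreatic acinar marker genes, measured as a sum of TPM, lay between 19.1 and 23.3 in every liver library except SBR vehicle replicate 7, which reached 3354. In the duodenum this sum ranged widely in every group. It was 88.3 to 1360 in sham, 17.5 to 897 in SBR vehicle and 172 to 1589 in SBR WUSTL0717 libraries.

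The promoters of genes that moved together in the liver are shown for the 3 members whose 250 bases before the annotated start lay outside annotated exons (RefSeq, GRCm38.p6, 5′ to 3′ on the gene's own strand). Capitals mark matches, on either strand (so that CCAAT also appears as ATTGG and GGGCGG as CCGCCC), to the GC box GGGCGG, the CCAAT box CCAAT and the TEAD motif GGAATG. Timp1 lies on chrX:20869916-20870165 (plus strand), Mmp14 on chr14:54431348-54431597 (plus strand) and Serpinh1 on chr7:99353240-99353489 (minus strand).
Timp1: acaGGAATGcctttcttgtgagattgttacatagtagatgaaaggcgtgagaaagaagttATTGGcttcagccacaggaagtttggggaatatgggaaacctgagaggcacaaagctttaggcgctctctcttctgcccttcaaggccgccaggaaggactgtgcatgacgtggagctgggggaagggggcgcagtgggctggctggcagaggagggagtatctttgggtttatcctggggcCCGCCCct
Mmp14: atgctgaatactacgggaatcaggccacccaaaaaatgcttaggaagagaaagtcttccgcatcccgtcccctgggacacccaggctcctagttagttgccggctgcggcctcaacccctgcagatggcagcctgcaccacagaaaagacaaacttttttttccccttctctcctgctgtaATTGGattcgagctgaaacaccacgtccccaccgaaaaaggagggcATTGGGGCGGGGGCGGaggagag
Serpinh1: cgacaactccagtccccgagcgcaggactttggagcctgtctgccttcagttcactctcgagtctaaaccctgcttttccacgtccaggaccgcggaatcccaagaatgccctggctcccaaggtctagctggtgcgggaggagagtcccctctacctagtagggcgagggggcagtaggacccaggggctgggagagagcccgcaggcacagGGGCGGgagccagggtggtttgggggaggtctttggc

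RefSeq windows were at hand for 5 of the 8 members, the 3 above with Timp2 and Timp3. All 5 windows held a GC box, against 32.7% of 32851 windows of the same length. In Timp1 its first base lay 8 bases before the start, in Mmp14 the matches lay 19 and 13 bases before it, and in Serpinh1 37 bases. A CCAAT box was present in 3 of the 5 (Timp1, Timp2 and Mmp14), against 33.8% of all windows, and the Mmp14 match nearest the start shares a base with a GC box. The TEAD motif was found in Timp1 alone, 247 bases before the start (12.6% of all windows). None of the 5 windows held TATAAA (12.4% of all windows), the AP-1 motif TGANTCA (6.75%), the SMAD motif GTCTAGAC (0.167%) or the heat shock element core GAANNTTC (6.69%), which says only that these letters are absent from these windows. The GC content of the windows was 54.4% for Timp1, 55.2% for Mmp14, 63.6% for Serpinh1, 65.6% for Timp3 and 68.0% for Timp2, all above the median of 52.4%. The Timp2 and Timp3 windows include 203 and 40 bases of annotated exons. A match is a description of the sequence and not evidence of binding.

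In the liver, all 8 genes were higher after SBR than after sham surgery, by 2.09-fold (Mmp14) to 5.73-fold (Mmp2), and in none of the 8 did any SBR vehicle liver overlap any sham liver. The rise covered inhibitors, proteases, crosslinking enzymes and the chaperone alike. Each of the 8 passed the limma test (adjusted p from 3.7e-08 to 9.92e-06, adjusted over 15901 genes). Timp1 was among them, although it passed the filter on low values only through the resected livers. The same comparison called 41.9% of all genes, 37.4% of all genes as higher, and 15.6% of all genes were higher with no overlap between the groups. With each library centred on its median, 20.4% of genes were called higher and 28.8% lower, in place of 37.4% and 4.47%, and all 8 members were still called higher, with log2 fold changes of 0.76 (Mmp14) to 2.21 (Mmp2). The median log2 fold change of the 8 was 1.74, against 0.25 over all genes tested, and their log2 fold changes lay above those of 94.1% (Mmp14) to 99.8% (Mmp2) of genes.

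Timp1 encodes the inducible TIMP. Its log2 TPM in the 5 sham livers was 0.50, 0.35, 0.37, 0.60 and 0.37. In the 8 SBR vehicle livers the lowest value was 2.01, the median 2.65 and the highest 3.30. Every resected liver therefore lay more than a full log2 unit above every sham liver, and the sham values varied little. Timp1 was 4.78-fold higher after SBR, a log2 fold change of 2.26 (SE 0.22, 95% confidence interval 1.80 to 2.72; limma adjusted p = 2.89e-07). Its sham mean of 0.44 lay below the filter minimum of 1, so Timp1 entered the test only through the resected livers. Because the sham values are low on this scale, the size depends on the pseudocount: the log2 fold change of Timp1 was 3.62 with a pseudocount of 0.1 and 0.98 with 5. The low genes Loxl1 and Loxl2 moved in the same way, to 2.62 and 1.55 for Loxl1 and to 1.61 and 0.75 for Loxl2, and all 3 were called under both.

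Timp2, which restrains metalloproteinases and assists the activation of MMP2, had log2 TPM of 3.40, 3.22, 3.42, 3.82 and 3.64 in the sham livers. After SBR with vehicle it ranged from 4.76 to 5.68 with a median of 5.28. No resected liver came near the sham range. The increase was 3.32-fold, with a log2 fold change of 1.73 (SE 0.16; limma adjusted p = 2.16e-07).

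Timp3, the TIMP that stays bound to the matrix, measured 3.03, 2.68, 2.76, 3.10 and 2.99 log2 TPM in sham livers. Its SBR vehicle values ran from 3.65 through a median of 4.16 to 4.56. The groups were again apart, with a narrower gap than for the other inhibitors. Timp3 was 2.26-fold higher after SBR (log2 fold change 1.18, SE 0.16, limma adjusted p = 9.25e-06).

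Mmp2, a secreted gelatinase that digests denatured and basement membrane collagen, showed the largest change of the 8. The sham livers had log2 TPM of 2.81, 2.51, 2.85, 3.11 and 3.18. Resected livers on vehicle had a lowest value of 4.87, a median of 5.39 and a highest value of 5.90. The lowest resected liver stood well above the highest sham liver. This is a 5.73-fold difference (log2 fold change 2.52, SE 0.21, 95% confidence interval 2.09 to 2.95; limma adjusted p = 4.78e-08).

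Mmp14, the membrane-anchored collagenase that activates MMP2, started from 3.81, 3.70, 4.29, 4.26 and 3.93 log2 TPM in sham livers. After SBR its lowest, median and highest values were 4.52, 5.11 and 5.32. The 2 groups were separate but close, since the lowest resected liver lay just above the highest sham liver. The change was the smallest of the 8, 2.09-fold (log2 fold change 1.06, SE 0.14, limma adjusted p = 9.92e-06).

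Loxl1, an oxidase needed for elastic fibre assembly, had sham log2 TPM of 1.85, 1.60, 1.91, 2.11 and 2.22. In SBR vehicle livers it lay between 3.72 and 4.60, with a median of 4.29. All resected livers were far above all sham livers. Loxl1 rose 4.93-fold (log2 fold change 2.30, SE 0.18, 95% confidence interval 1.92 to 2.69; limma adjusted p = 3.7e-08).

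Loxl2, which crosslinks collagen IV and fibrillar collagens, was measured at 1.70, 1.52, 1.71, 1.72 and 1.92 log2 TPM after sham surgery. The SBR vehicle livers spanned 2.71 to 3.53 around a median of 3.05. The sham livers were closely grouped and all below the resected ones. Loxl2 was 2.49-fold higher (log2 fold change 1.32, SE 0.15, limma adjusted p = 1.2e-06), so that both oxidases rose, Loxl1 by the larger fold.

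Serpinh1 encodes HSP47, the endoplasmic reticulum chaperone that stabilises the collagen triple helix and is itself a heat shock gene. Sham livers had log2 TPM of 4.32, 4.31, 4.19, 4.46 and 4.61. SBR vehicle livers had a lowest value of 5.75, a median of 6.11 and a highest of 6.58. Again no value was shared between the groups. The difference was 3.37-fold (log2 fold change 1.75, SE 0.17, limma adjusted p = 3.29e-07). For each of the 8 genes, the exact two-sided permutation test gave p = 0.000777, the smallest that 8 against 5 libraries can give, and 0.00546 after adjustment over all genes; at an adjusted p under 0.05 that test called 35.2% of genes.

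**Figure D1:**
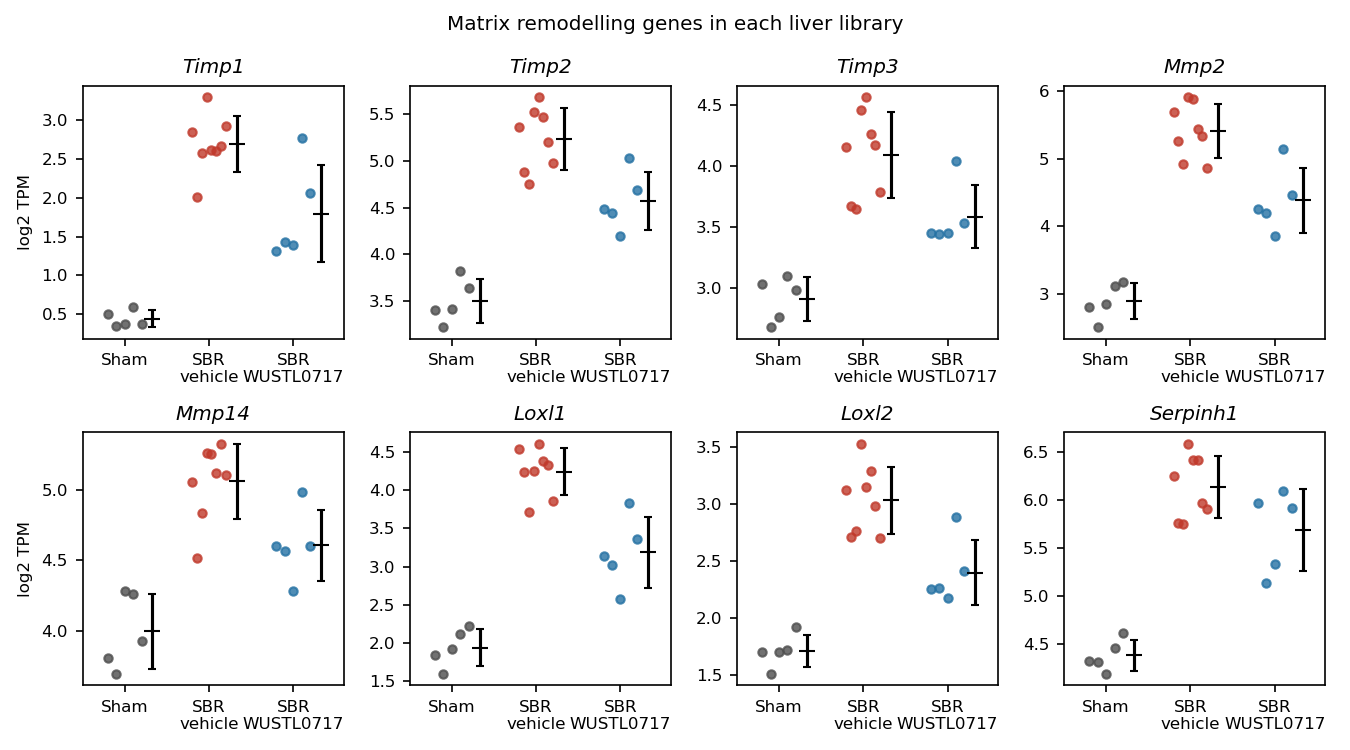
Log2 TPM of the 8 genes in the 18 liver libraries, 1 panel per gene and 1 point per library, with the group mean and SD; the groups are sham (n = 5), SBR vehicle (n = 8) and SBR WUSTL0717 (n = 5). In every panel the SBR vehicle points lie above all sham points, and in every panel the treated mean lies between the sham and SBR vehicle means; in the Mmp14 panel 1 treated point, at 4.28, lies inside the sham range.

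In SBR mice given WUSTL0717, the liver values of all 8 genes had lower means than in SBR mice given vehicle, by 1.36-fold to 2.08-fold. The limma test called 5 of the 8 lower: Loxl1, Mmp2, Loxl2, Timp1 and Timp2. Timp3, Mmp14 and Serpinh1 did not pass, although all 8 were called once each library was centred on its median, where 11.5% of all genes were called higher and 8.19% lower in place of 1.44% and 2.66%. Over all genes this comparison called 4.1%, and 2.66% as lower, and the median log2 fold change of the 8 was -0.65 against 0.02 over all genes. No member separated the 2 groups completely (0.308% of genes were lower without overlap), and the calls depended on the test: the exact permutation test called 0 of the 8 and 0 of all 15901 genes (unadjusted p for the 8 from 0.00155 to 0.0559, adjusted 0.129 to 0.365), and an unmoderated two-sample test also called 0 of the 8 and 0 of all genes.

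Among the inhibitors, Timp1 had log2 TPM of 1.31, 1.43, 1.39, 2.78 and 2.06 in the 5 treated livers. Replicates 1, 2 and 3 lay below every SBR vehicle liver, and replicates 4 and 5 lay inside the vehicle range. The log2 fold change was -0.90 (SE 0.22, 95% confidence interval -1.36 to -0.44), 1.87-fold lower, with a limma adjusted p of 0.0263. Timp2 measured 4.49, 4.44, 4.20, 5.04 and 4.69 in the same livers. Replicate 4 again fell within the vehicle range and the other 4 below it. Timp2 was 1.58-fold lower (log2 fold change -0.66, SE 0.16, limma adjusted p = 0.0281). Timp3, at 3.45, 3.44, 3.45, 4.04 and 3.53, had the same arrangement of replicates. Its log2 fold change of -0.50 (SE 0.16) did not pass (limma adjusted p = 0.0807).

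Of the proteases, Mmp2 had treated values of 4.26, 4.20, 3.86, 5.14 and 4.46. All but replicate 4 lay below the vehicle livers. Mmp2 fell 2.04-fold (log2 fold change -1.03, SE 0.21, limma adjusted p = 0.0122). Mmp14 had 4.60, 4.57, 4.28, 4.99 and 4.60. Only replicate 3 lay below the lowest vehicle liver, and the difference of -0.45 on the log2 scale (SE 0.14) had a limma adjusted p of 0.0859.

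Both oxidases were lower in treated livers, and Loxl1 had the lowest adjusted p of the 8. It measured 3.14, 3.02, 2.57, 3.83 and 3.36 in treated livers. Replicate 4 was the exception once more, and the other 4 were below every vehicle liver. Loxl1 was 2.08-fold lower (log2 fold change -1.06, SE 0.18, limma adjusted p = 0.00689). Loxl2 had 2.25, 2.26, 2.18, 2.89 and 2.41, with the same single overlap. It was 1.55-fold lower (log2 fold change -0.63, SE 0.15, limma adjusted p = 0.0217).

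Serpinh1 stood apart in its pattern over replicates. Its treated values were 5.96, 5.13, 5.33, 6.09 and 5.92 log2 TPM. Replicates 2 and 3 lay below all vehicle livers, and replicates 1, 4 and 5 lay within their range. The difference of -0.44 (SE 0.17, 95% confidence interval -0.80 to -0.08) had a limma adjusted p of 0.174, and that interval includes decreases close to those of Timp2 and Loxl2. Relative to the SBR difference, the treated mean of Serpinh1 had moved 25.3% of the way back to sham, while for the other 7 genes the figure lay between 38.2% (Timp2) and 47.9% (Loxl2); these percentages rest on shared groups and were not tested against each other.

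Replicate 4 of the treated livers was the highest of its group for all 8 genes. It also had the highest summed TPM of the fibroblast markers (73.1) and of the cholangiocyte markers (440) among treated livers. Its median log2 TPM over all genes was the highest of the treated livers as well, 3.73 against 3.43 to 3.56. Leaving out 1 library at a time gave between 1 and 7 called members: 2 without treated replicate 1 (1.11% of all genes called), 1 without replicate 2 (0.711%) and 1 without replicate 3 (0.585%), against 7 without replicate 4 (6.76%) or without SBR vehicle replicate 2 (5.87%), where Timp3 and Mmp14 passed. The count of members thus moved with the share of all genes called. Timp3 also passed without SBR vehicle replicate 3, and Timp2 did not pass without SBR vehicle replicate 1 or 6.

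All 8 genes remained higher in treated SBR livers than in sham livers. The log2 fold changes were 1.36 for Timp1, 1.07 for Timp2, 0.67 for Timp3, 1.49 for Mmp2, 0.61 for Mmp14, 1.25 for Loxl1, 0.69 for Loxl2 and 1.31 for Serpinh1 (limma adjusted p from 0.00017 to 0.00975). For 7 of the 8, every treated liver lay above every sham liver. Mmp14 was the exception, because treated replicate 3 at 4.28 lay below the sham maximum of 4.29. This comparison called 28.8% of genes, 27.9% as higher, and 27.4% of genes were higher without overlap. The exact permutation test also called all 8, and 35.8% of genes. This comparison shares its sham livers and its treated livers with those above.

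**Figure D2:**
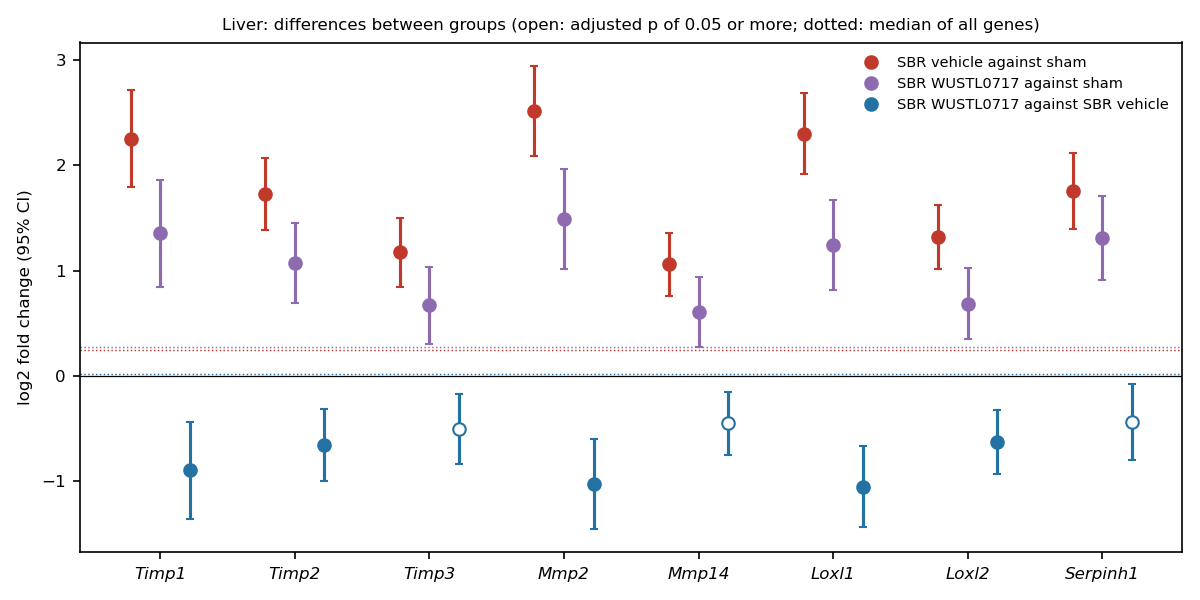
Log2 fold change of each of the 8 genes in the liver with its 95% confidence interval from limma (open where the adjusted p is 0.05 or more; dotted lines mark the medians of all genes), for SBR vehicle against sham, SBR WUSTL0717 against SBR vehicle and SBR WUSTL0717 against sham. All 8 intervals of both comparisons with sham lie above 0, and the estimates for WUSTL0717 against vehicle run from -1.06 (Loxl1) to -0.44 (Serpinh1).

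The genes rose and fell together from liver to liver. Over the 18 liver libraries, the Pearson correlation of the 28 pairs ran from 0.895 (Mmp14 with Serpinh1) to 0.990 (Mmp2 with Loxl1), with a median of 0.948, against a median of 0.530 between members and all other genes. After subtraction of the group means, the pairs still ran from 0.486 (Timp1 with Loxl1) to 0.925 (Timp2 with Timp3), median 0.733, against 0.517 with other genes. These are descriptions: the points share libraries and the group differences. The genes most like the mean of the 8 over the 18 livers were Myof (r = 0.996) and Bicc1, Olfml3, Cd24a and Robo2 (each 0.995). The closest gene to each member was Spats2l for Timp1 (0.986), the small proteoglycan gene Bgn for Timp2 (0.994), Lhfp for Timp3 (0.988), the collagen VI gene Col6a1 for Mmp2 (0.996), 4933431E20Rik for Mmp14 (0.983), the latent TGF-beta binding protein gene Ltbp3 for Loxl1 (0.996), the fibrillin gene Fbn1 for Loxl2 (0.992) and Gdf10 for Serpinh1 (0.986).

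Transcripts of the matrix proteins on which these enzymes act were examined in the same livers. Of 21 collagen, elastin and other matrix substrate genes tested, 19 were called higher after SBR and 15 lower with WUSTL0717, with median log2 fold changes of 1.80 and -0.65. Col1a1, the main fibrillar collagen chain, had log2 fold changes of 3.36 after SBR and -1.47 with the drug. Col6a3 had 2.92 and Col4a1 1.86 after SBR, and with the drug Col3a1 had -1.14 and Col5a2 -0.93. These shares stand against 37.4% of all genes called higher after SBR and 2.66% called lower with the drug.

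All 4 other crosslinking enzymes tested were called higher after SBR (median log2 fold change 0.81), among them the transglutaminase gene Tgm2 (1.13), the oxidase Loxl4 (0.97) and the peroxidasin gene Pxdn (0.65), which crosslinks collagen IV. None of the 4 was called with the drug (median -0.36). The all-gene shares were 37.4% called higher after SBR and 2.66% called lower with the drug. Among genes for collagen folding and processing, 10 of 17 were called higher after SBR (median 0.51) and 3 lower with the drug (median 0.003). Sparc, a collagen-binding matricellular protein gene, had 1.73 and -0.74, Fkbp10, a collagen chaperone that works in the same compartment as HSP47, had 1.48 and -0.59, Pcolce, an enhancer of procollagen trimming, had 1.35 after SBR, and P3h4 had -0.49 with the drug.

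Other proteases are set against the same background, 37.4% of all genes called higher after SBR (all-gene median 0.25) and 2.66% called lower with the drug. Of 10 further metalloproteinase and inhibitor genes, 5 were called higher after SBR (median 0.55) and 3 lower with the drug (median -0.20). Mmp7, matrilysin, had the largest difference in the list, 4.49 after SBR and -2.50 with the drug, followed by Mmp23 (1.46 and -0.58) and Mmp11 (1.04 and -0.58). Of 15 ADAM and ADAMTS genes, 12 were called higher after SBR (median 1.01) and 3 lower with the drug (median -0.29). Adamts2, the procollagen N-proteinase, had 1.96 and -0.75, Adamts5 1.36 and -0.68, Adamts10 1.25 after SBR and Adamts9 -0.61 with the drug. In the plasminogen and cathepsin list of 11 genes, 7 were called higher and 1, the plasminogen gene Plg, lower after SBR (median 1.15), and 3 were called lower with the drug (median -0.45). The plasminogen activator genes Plat and Plau had 1.72 and 1.35 after SBR, the cathepsin S gene Ctss had 1.32, and with the drug Plat had -0.93, the cathepsin K gene Ctsk -0.73 and Serpine2 -0.65.

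**Figure D3:**
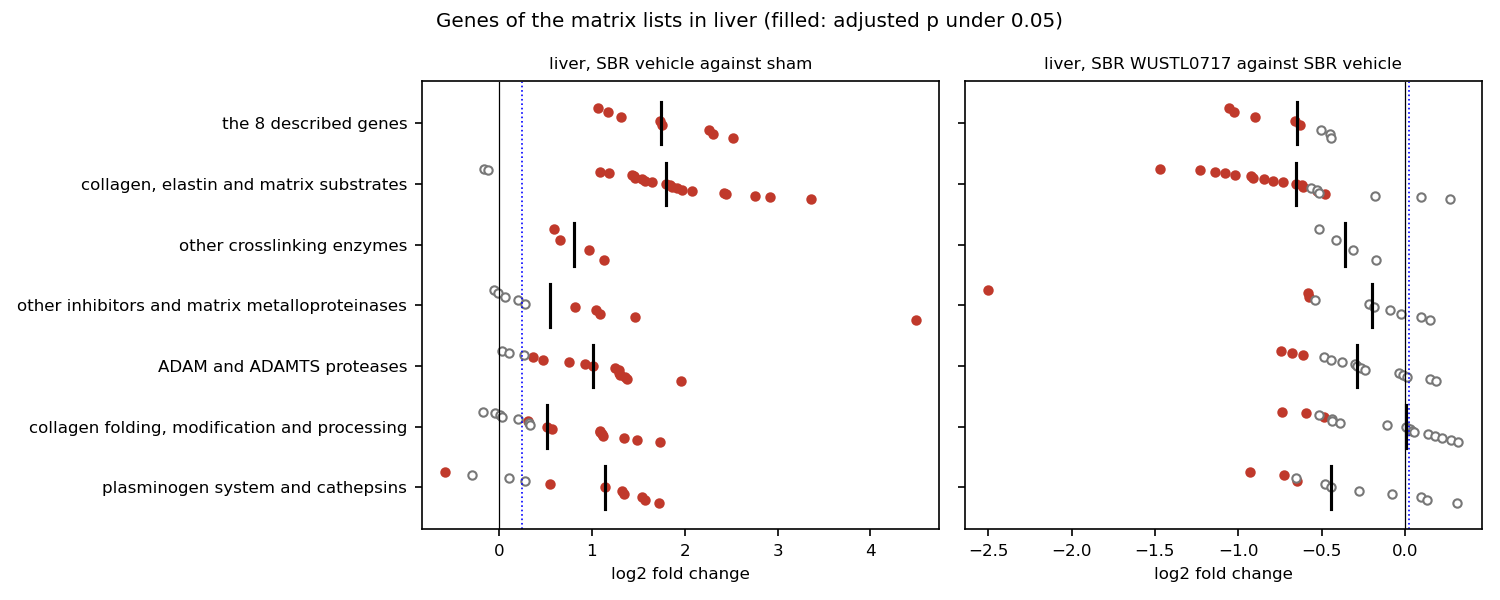
Liver log2 fold changes of the genes in each matrix list, 1 point per gene, filled where the adjusted p is under 0.05, with a bar at each list's median and a dotted line at the median of all genes, for SBR vehicle against sham and SBR WUSTL0717 against SBR vehicle. The 8 members and the matrix substrates have medians of 1.74 and 1.80 after SBR and both lists have a median of -0.65 with the drug; the folding list has 0.51 and 0.003.

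In bulk tissue, more cells of a type and more RNA per cell cannot be told apart, and the markers of liver cells are given here against the 37.4% of all genes called higher and 4.47% called lower after SBR. With the drug, the all-gene shares were 1.44% called higher and 2.66% called lower. All 5 tested fibroblast markers were called higher after SBR: their summed TPM was 18.9 to 31 in sham, 56.5 to 102 in SBR vehicle and 41.6 to 73.1 in SBR WUSTL0717 livers, and 1 of the 5, Cd34, was called lower with the drug. Of 9 stellate cell markers, 7 were called higher and 1, Hhip, lower after SBR, with sums of 163 to 213 in sham, 188 to 317 in SBR vehicle and 231 to 304 in treated livers. With the drug, 1 of the 9 was called lower, the receptor gene Pdgfrb at -0.64 (1.84 after SBR), and the list's median was -0.10. The cholangiocyte markers rose in 6 of 6 and fell with the drug in 4 of 6, with sums of 75.0 to 175, 342 to 681 and 197 to 440; Epcam had 2.68 and -1.10.

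Myofibroblast markers did not follow. Only 1 of 5, Tagln at 0.34, was called higher after SBR, the list's median was -0.00, and the sums of 84.1 to 171, 79.6 to 186 and 80.8 to 191 TPM overlapped across the 3 groups. Macrophage markers had 2 of 7 higher, among them Gpnmb at 2.72, and 1 lower after SBR, and 1, Clec4f, higher with the drug, with sums of 75.0 to 102, 78.1 to 172 and 126 to 156. Of all genes, 1.44% were called higher and 2.66% lower with the drug. Of 8 hepatocyte markers, 3 were called lower after SBR, with sums of 4222 to 5398, 2524 to 4857 and 4684 to 5436. Endothelial markers had 1 of 7 called, gut smooth muscle markers 1 of 5, lymphoid markers 1 of 4 and pancreatic acinar markers 0 of 7 after SBR. Of 8 gut epithelial markers, 3 were called higher after SBR, a share like the 37.4% of all genes, with a median of 0.25 that equals the all-gene median, and 2 lower with the drug: Vil1 had 1.04 and -0.69, Cdh1 0.97 and -0.61, and Krt20 0.27 after SBR, and the sums were 764 to 940 in sham, 715 to 1400 in SBR vehicle and 1029 to 1300 TPM in treated livers. The part of these cell types in the result was not tested. Without SBR vehicle replicate 7, the library with the pancreatic markers, all 8 members were still called higher after SBR, as they were without any other single liver library.

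Some treated libraries stood apart in heat shock genes, a group looked at after values were seen. The mean log2 TPM of Hspa1a, Hspa1b, Dnajb1 and Hsph1 was 6.35 in treated liver replicate 1 and 5.31 in replicate 5, against 3.54 to 4.06 in the other treated livers and 3.51 to 4.35 in all untreated livers. Hspa1a and Hspa1b are near-identical copies, so the split of reads between them is uncertain. Both of those livers had Serpinh1 values within the SBR vehicle range, whereas for 6 of the other 7 genes, all but Mmp14, replicate 1 lay below every SBR vehicle liver. Treated replicate 4, also high in Serpinh1, was not high in heat shock genes. Without replicates 1 and 5, the log2 fold change of Serpinh1 with the drug was -0.61 in place of -0.44, and those of the other members lay between -1.10 (Loxl1) and -0.44 (Timp3). With 3 treated livers left, limma called 0 of the 8 (adjusted p from 0.0585 to 0.306) and 0.176% of all genes, and against sham all 8 were still called higher, with 14.8% of all genes. The part of heat shock in the Serpinh1 values was not tested.

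The same split appeared in the gut. Among treated duodenum libraries, heat shock genes had a mean log2 TPM of 7.26 in replicate 1 and 4.92 in replicate 3, against 1.85 to 4.02 in untreated duodenum; among treated ileum libraries the corresponding values were 6.82 in replicate 1 and 5.05 in replicate 3, against 2.58 to 3.46.

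**Figure D4:**
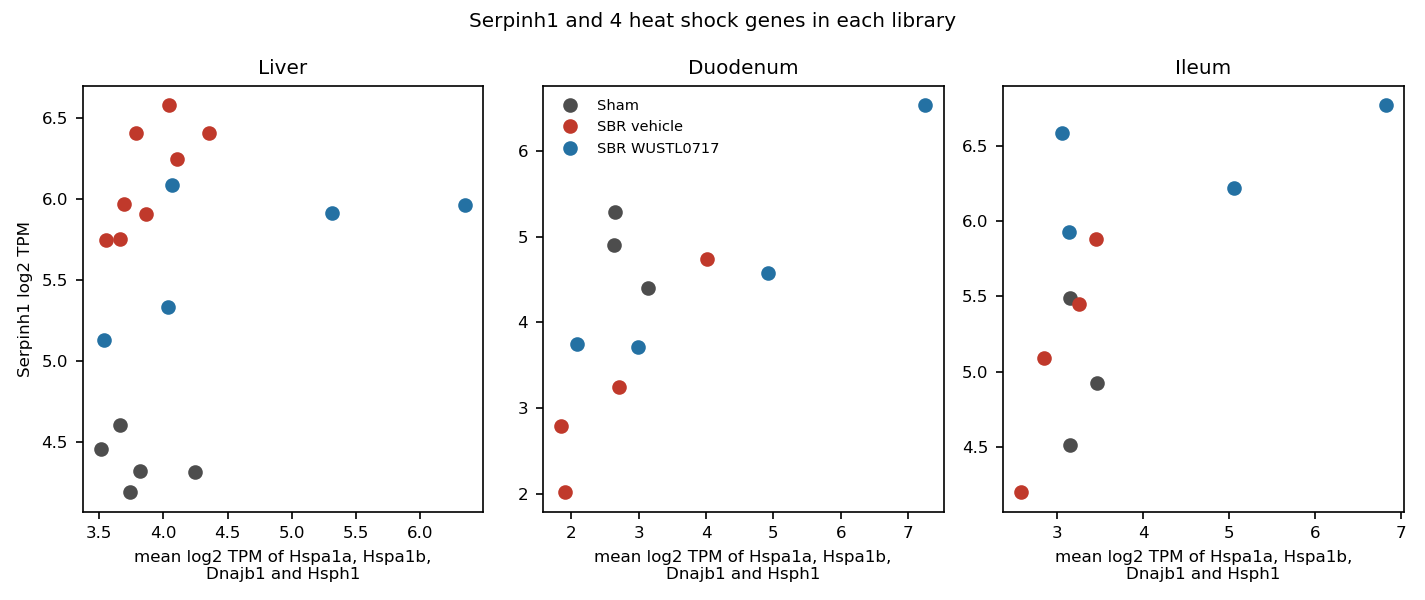
Log2 TPM of Serpinh1 against the mean log2 TPM of 4 heat shock genes (Hspa1a, Hspa1b, Dnajb1 and Hsph1), 1 panel per tissue and 1 point per library, coloured by group. The points far to the right are treated libraries: replicates 1 and 5 in liver at 6.35 and 5.31, and replicates 1 and 3 in each gut tissue.

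In the gut, none of the 8 genes passed the test in any comparison. In the duodenum, 7 of the 8 had lower means after SBR than after sham surgery, in contrast to the liver, but limma called 0 of the 8 (adjusted p from 0.29 to 0.96), and the comparison called 0 of all 15093 genes tested. At an unadjusted p under 0.05 it would list 16.1% of genes, and 3 of the 8 members (Timp2, Loxl1 and Serpinh1); the exact permutation test called 0 genes. The median over all genes was itself -0.36, and after centring each library on its median the differences of Timp3 and Loxl2 turned to 0.018 and 0.087.

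Serpinh1 had the largest difference in the duodenum. Sham libraries had log2 TPM of 4.40, 4.91 and 5.29, and SBR vehicle libraries 4.73, 3.25, 2.02 and 2.79. Replicate 1 of the resected group lay within the sham range and the other 3 below it, for a log2 fold change of -1.67. Loxl1 had 2.48, 2.37 and 3.76 in sham against 2.64, 0.93, 0.61 and 1.92 after SBR (log2 fold change -1.34). Timp2 had 3.28, 3.21 and 4.17 against 3.34, 2.15, 2.27 and 2.51 (-0.99). In both genes resected replicate 1 again lay among the sham values while the other 3 were lower. The remaining differences were 0.08 for Timp1, -0.39 for Timp3, -0.79 for Mmp2, -0.80 for Mmp14 and -0.32 for Loxl2. The 7 pancreatic acinar markers had a median log2 fold change of -1.70 in the same comparison, with 0 called. Their part in the differences of the members was not tested.

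In the ileum, all 8 genes had higher means after SBR, by 0.18 (Serpinh1) to 0.84 (Mmp2) on the log2 scale, and limma called 0 of them (adjusted p from 0.688 to 0.989) against 0.349% of all genes. At an unadjusted p under 0.05 it listed 0 members and 8.46% of genes, and the exact permutation test called 0 genes. Of all genes tested in this comparison, 57.7% had higher means after SBR, and the median log2 fold change was 0.07. Mmp2 measured 4.18, 4.22 and 4.47 in sham ileum and 5.71, 4.40, 5.42 and 4.98 after SBR. Resected replicate 2 fell within the sham range and the other 3 above it. Timp1, with a difference of 0.20, had 0.85, 0.56 and 2.00 in sham and 1.27, 1.47, 1.22 and 1.37 after SBR, so the resected values all lay inside the sham range.

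With WUSTL0717, the gut differences of the inhibitors, proteases and oxidases ran from -0.90 (Timp1) to 0.23 (Loxl1) in duodenum and from -0.49 (Mmp14) to 0.18 (Timp2) in ileum on the log2 scale. Serpinh1 had the largest difference of the 8 in both tissues, 1.45 in duodenum and 1.22 in ileum. Limma called 0 of the 8 in either tissue, against 0.258% of genes in duodenum and 0.0697% in ileum, and the exact permutation test called 0 genes. At an unadjusted p under 0.05 the comparison listed 0 members and 5.31% of genes in duodenum, and 1 member, Serpinh1, and 6.87% of genes in ileum. Treated ileum libraries had Serpinh1 values of 6.77, 6.59, 6.22 and 5.93, and vehicle libraries 5.89, 5.09, 5.45 and 4.20. All 4 treated values were above all 4 vehicle values, the only member with such a separation in the ileum, where 2.56% of genes were higher with the drug without overlap; the limma adjusted p was 0.508, and the smallest exact p that 4 against 4 libraries allow is 0.0286. In duodenum the treated values were 6.53, 3.75, 4.58 and 3.71, of which only replicate 1 lay above the vehicle range. Without the treated libraries high in heat shock genes, the Serpinh1 differences were 0.53 in duodenum and 1.10 in ileum. The 7 pancreatic acinar markers had a median log2 fold change of 2.16 with the drug in duodenum, with 0 called. Their part in the Serpinh1 difference was not tested.

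The difference between tissues in the SBR effect was tested by an interaction term in limma over all 40 libraries. That fit gave each gene 1 spread for all tissues, although genes mostly varied less over liver than over gut libraries. Against duodenum, the interaction SE of Serpinh1 was 0.604, below the 0.738 of its duodenum effect alone. Timp1, Timp2, Mmp2, Mmp14 and Loxl1 were alike in this, and Timp3 and Loxl2 were not. The adjusted p-values against duodenum may therefore be too small. For liver against duodenum, all 8 genes had a higher effect in liver, by 1.56 (Timp3) to 3.65 (Loxl1) on the log2 scale (adjusted p from 7.24e-06 to 0.0124), against 29.1% of genes called in all, 26.6% called higher in liver and a median of 0.64 over all genes. After centring each library, Timp1, Timp3 and Mmp14 no longer passed and 5 of the 8 did, against 20.8% of all genes called and 8.66% called higher in liver. Between these ends lay Loxl2 at 1.63, Mmp14 at 1.86, Timp1 at 2.17, Timp2 at 2.72, Mmp2 at 3.31 and Serpinh1 at 3.42. For liver against ileum, 2 of the 8 were called, Loxl1 with 1.85 (adjusted p = 0.033) and Mmp2 with 1.68 (adjusted p = 0.0424), against 4.9% of genes in all and 3.48% higher in liver. The others had 2.06 (Timp1, adjusted p = 0.0532), 1.57 (Serpinh1), 1.26 (Timp2), 1.02 (Loxl2), 0.55 (Timp3) and 0.37 (Mmp14), and did not pass. The call of 2 was lost (0 members) with the replicate block, where 2.78% of genes were called, and with a pseudocount of 0.1 (4.18%). It also rested on single libraries: it was 0 without ileum sham replicate 3, ileum SBR vehicle replicate 2, or liver sham replicate 1 or 2, and 4 without liver SBR vehicle replicate 2 (5.38% of genes called). The effect of WUSTL0717 was not called different between liver and either gut tissue for any member (0 of 8 each, against 0.9% and 0.208% of genes; 3 of 8 each at an unadjusted p under 0.05, against 8.16% and 6.22%). Serpinh1 had the lowest adjusted p in both, with a difference of -1.89 for duodenum (adjusted p = 0.143) and -1.67 for ileum (adjusted p = 0.355). Because the batch correction may have scaled liver and gut differently, these differences also carry that scaling.

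**Figure D5:**
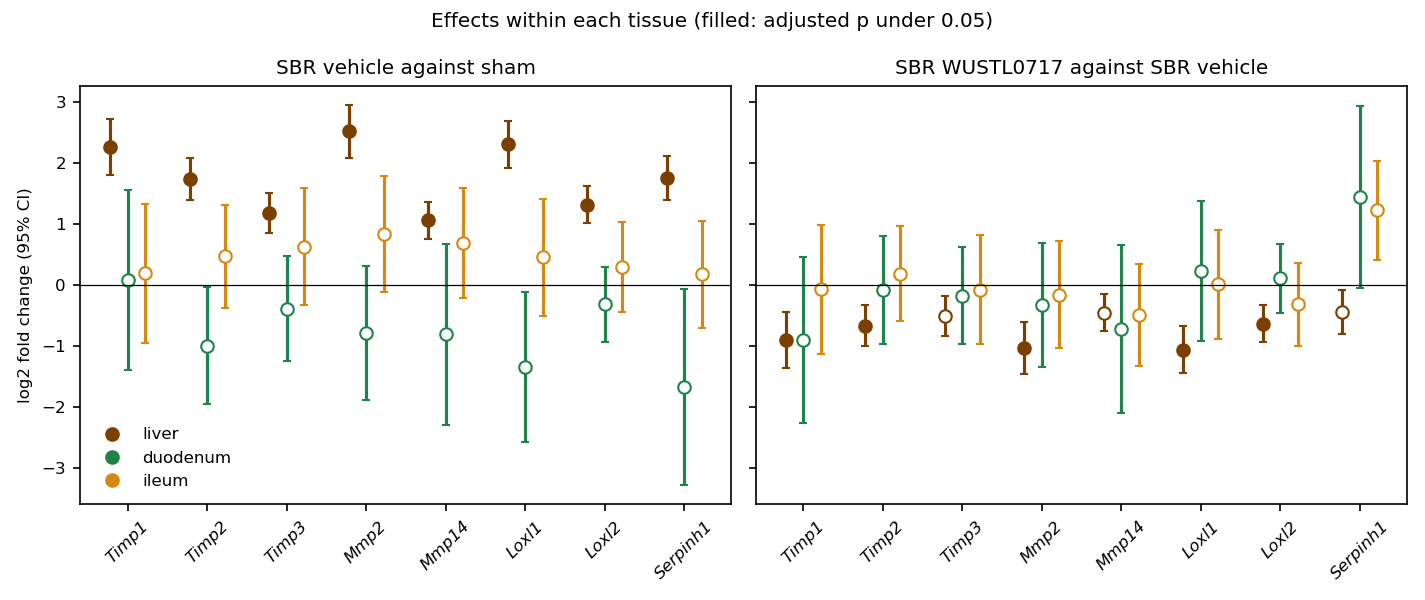
Log2 fold change of the 8 genes in liver, duodenum and ileum with 95% confidence intervals from limma (filled where the adjusted p is under 0.05), for SBR vehicle against sham and SBR WUSTL0717 against SBR vehicle. The SBR estimates in liver run from 1.06 to 2.52, in duodenum from -1.67 to 0.08 and in ileum from 0.18 to 0.84, with wider intervals in the gut, where 3 or 4 libraries make a group.

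The members lie on 7 chromosomes of the GRCm38 mouse assembly. Timp1 spans chrX:20870166-20874735 on the plus strand, Timp2 chr11:118301069-118355740 on the minus strand and Timp3 chr10:86300372-86349506 on the plus strand. Mmp2 spans chr8:92827291-92853420 and Mmp14 chr14:54431612-54445364, both on the plus strand. Loxl2 shares chromosome 14 with Mmp14, at 69609068-69695834 on the plus strand, while Loxl1 lies at chr9:58287738-58313186 and Serpinh1 at chr7:99345376-99353239, both on the minus strand. Exons of Timp3 overlap those of Syn3 on the opposite strand, and exons of Loxl2 overlap an antisense gene, Gm27177, and the microRNA gene Mir6950. None of these 3 overlapping genes has a row in the table. The study counted only unambiguous reads, and the sources do not state whether counting used strand. Reads from exon bases that Timp3 and Loxl2 share with these neighbours may therefore have been left out of their values.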

How the data were processed

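RNA from liver, duodenum and ileum was depleted of ribosomal RNA and sequenced from random-primed, paired-end libraries. According to the submitters' processing notes and the study's methods, the authors aligned reads to GRCm38 with STAR, counted uniquely placed reads per gene with featureCounts, normalised them with edgeR, and deposited log2 TPM values after ComBat batch correction, 1 table for all 40 libraries. The pseudocount of that scale is not given in the sources used here and was taken as 1 where another was tried (0.1 and 5). No counts were used, so depth and counting error are unknown.

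Groups came from the sample labels, which do not say which libraries share a mouse. Each tissue was fitted in R 4.3.3 with limma 3.58.1 (trend, 3 group means) over genes whose average over the tissue's libraries reached 1 on the log2 TPM scale, and called at a Benjamini-Hochberg adjusted p under 0.05, two-sided. Exact two-sided permutation tests were run on every gene. Interactions used all 40 libraries. Summed TPM undo the log scale. Fits were tested on simulated data. The p-values measure the spread between these libraries.

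The members and gene lists were chosen with earlier results of these data known. Named genes besides the members were the 3 genes of each matrix list with the smallest p in a liver comparison among those called, marker genes where a value was needed, and the genes of highest correlation. Alternatives were other filters, pseudocounts, median centring, library weights, a replicate block, only the 2 groups compared, an unmoderated two-sample test, permutation, leaving out each library, and, chosen after seeing the data, leaving out treated libraries high in 4 heat shock genes. Promoters are from RefSeq and gene spans from the GRCm38 annotation. Lox was not analysed here.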

Additional observations from a re-analysis of the deposited data

Results flagged for a closer look

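A single value lay far from the rest of its group: Timp3 in SBR WUSTL0717 liver replicate 4 was 4.04 log2 TPM, while the other 4 treated livers lay between 3.44 and 3.53. It was 1 of 56 groups of 4 or more libraries tested over the 8 genes, and chance would give about 5%. The same library was the highest treated liver for all 8 genes.

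The effect of SBR differed between liver and duodenum for all 8 genes by the limma interaction test, with the larger effect in liver, where the test called 29.1% of all genes and where Timp1, Timp3 and Mmp14 no longer passed once each library was centred on its median: 2.17 for Timp1, 2.72 for Timp2, 1.56 for Timp3, 3.31 for Mmp2, 1.86 for Mmp14, 3.65 for Loxl1, 1.63 for Loxl2 and 3.42 for Serpinh1 on the log2 scale. Between liver and ileum it differed for Mmp2 by 1.68 and for Loxl1 by 1.85; neither passed with the replicate block, with a pseudocount of 0.1, or without any one of 4 single libraries (ileum sham replicate 3, ileum SBR vehicle replicate 2, liver sham replicates 1 and 2). Liver and gut libraries belong to different batches, so these differences carry both. The interaction test also gave each gene 1 spread for all tissues, so its p-values against duodenum may be too small.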

How the results depend on the processing

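All 8 members were called higher in SBR vehicle and in SBR WUSTL0717 livers than in sham livers under every alternative that tested them, and 6 of 6 where a mean of at least 3 left 6. For SBR WUSTL0717 against SBR vehicle in liver, the 5 called members (4.1% of all genes) became 3 of 6 with a mean of at least 3 (3.45%), 8 with libraries centred on their median (19.7%), 2 with only the 2 groups compared (0.931%), 0 with the unmoderated test, 0 with the exact permutation test, 0 without the treated libraries high in heat shock genes, and 1 to 7 when each library was left out. In duodenum, SBR called 1 member with library weights, where 16.5% of all genes were called. The SBR effect in liver and duodenum differed for 2 of 2 members with a mean of at least 3 (18.7% of all genes) and for 5 after centring (20.8%). That in liver and ileum differed for 0 of 2 with a mean of at least 3 (4.49%), 0 with a pseudocount of 0.1 (4.18%), 4 with library weights (12.8%), 0 with the replicate block (2.78%) and 0 to 4 when each library was left out. The WUSTL0717 effect in liver and duodenum differed for 1 member after centring (1.75%) and for 0 to 1 when each library was left out, the 1 without duodenum SBR vehicle replicate 1 (1.83%). The causes were not tested.

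Only differences that no test called changed sign. After SBR in duodenum, Timp1 had -0.052 with a pseudocount of 5, -0.21 with the replicate block and -0.77 to 0.74 when each library was left out, and after centring Timp3 had 0.018 and Loxl2 0.087. With WUSTL0717 in duodenum, without the libraries high in heat shock genes, Timp2 had 0.10 and Loxl2 -0.044, and leaving out each library gave -0.25 to 0.19 for Timp2, -0.31 to 0.069 for Timp3, -0.076 to 0.60 for Loxl1 and -0.055 to 0.29 for Loxl2. After SBR in ileum, leaving out each library gave -0.093 to 0.63 for Timp1 and -0.065 to 0.50 for Serpinh1. With WUSTL0717 in ileum, Timp1 had 0.054 and Loxl1 -0.0029 with a pseudocount of 5, Timp2 -0.22 and Loxl1 -0.36 with library weights, and, without the libraries high in heat shock genes, Timp1 0.44, Timp3 0.40 and Mmp2 0.34. Leaving out each library there gave -0.45 to 0.42 for Timp1, -0.085 to 0.36 for Timp2, -0.43 to 0.16 for Timp3, -0.50 to 0.18 for Mmp2 and -0.26 to 0.33 for Loxl1. For the WUSTL0717 effect in liver and duodenum, Timp1 had 0.25 with a pseudocount of 0.1, 0.037 after centring, 0.26 with library weights, 0.022 with the replicate block and -0.25 to 0.37 when each library was left out, and Mmp14 -0.036 to 0.74. In liver and ileum, Mmp14 had -0.060 with a pseudocount of 5, -0.37 without the libraries high in heat shock genes and -0.33 to 0.36 when each library was left out.

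Libraries with the same number did not deviate together (correlation of deviations from -0.20 to 0.17 in liver, -0.30 to 0.33 in duodenum and -0.32 to 0.24 in ileum), so the numbers were not taken as pairs within a tissue (across tissues this was not tested), and the replicate block left 8, 5 and 8 members called in the 3 liver comparisons. Depth is not known, so no limit from counting can be given.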

Other observations

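Gpnmb, a gene of lipid-laden macrophages, had a liver log2 fold change of 2.72 after SBR, but the macrophage list as a whole did not follow. Of its 7 markers, 2 were called higher and 1 lower after SBR. The list's median was 0.23, against 0.25 over all genes, and with the drug it was 0.18. The sums of all 7 macrophage markers overlapped between sham (75.0 to 102 TPM) and SBR vehicle (78.1 to 172 TPM). The mesenchymal lists moved unequally in the same livers: the fibroblast list had a median log2 fold change of 1.40, the stellate list 0.62 and the myofibroblast list -0.00.

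A treated library was counted as high in heat shock genes when its mean of the 4 genes lay above every untreated library of its tissue. By this rule 2 of 5 treated libraries were high in liver and 2 of 4 in each part of the gut. That no untreated library reached them follows from the rule and is not a separate result. The labels do not say whether libraries of the same number come from the same mouse. In treated replicate 1 the mean of the 4 heat shock genes was 6.35 in liver, 7.26 in duodenum and 6.82 in ileum.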
